A study of Homo sapiens with 9 samples.

Results

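The comparison described here is of 3 RNA sequencing libraries of Day21 cells with 3 of Day0 stem cells, taken from a series of 9 libraries that also holds 3 of Day42. It was chosen by time point and not by any measured value, and it covers all 34961 genes of the deposited table. All libraries came from the human embryonic stem cell line WA09 (H9), with the EGFP reporter knocked in at TPH2, the gene of the neuronal enzyme that starts serotonin synthesis. The study followed these cells towards serotonin neurons. Day0 cells were labelled as human embryonic stem cells and Day21 cells as neural progenitor cells, and the labels gave all libraries, Day0 included, the same genotype and the same treatment, an induced differentiation to serotonin neurons. There was 1 cell line and 1 knock-in, no line without the reporter and no untreated culture kept to Day21, so time in culture and differentiation cannot be told apart. The libraries of a day were numbered as biological replicates without a statement that they came from separate cultures. A p-value here sets the difference between the days against the spread of these libraries within a day, and that spread may be technical.

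Human embryonic stem cells are kept in an undifferentiated state of self-renewal by transcription factors such as OCT4 (gene POU5F1), NANOG and SOX2 and by NODAL and FGF signals, and they grow as a tight epithelium joined by E-cadherin. Neural induction replaces this program with that of the neuroepithelium, whose cells divide at a ventricle-like surface under NOTCH control and give rise to neurons through proneural transcription factors. Serotonin neurons arise in the ventral hindbrain, from progenitors next to the floor plate, the source of Sonic hedgehog, that express NKX2-2.

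Levels are given as FPKM, fragments scaled by gene length and sequencing depth, in replicates 1, 2 and 3 of each day. Changes are log2 fold changes of Day21 against Day0 ± SE from edgeR's quasi-likelihood test on the counts of these 6 libraries, with a Benjamini-Hochberg adjusted p over 19541 genes tested. A gene is said to have risen or fallen where the adjusted p was under 0.05 and the change at least 1 on the log2 scale. Where all libraries of a day were at 0, the fold is a lower bound against a limit of 12 counts per library.

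The 5 genes chosen to mark the days, with earlier results of these data known, moved apart in every library. Their separation is a description and no independent check. POU5F1 (ENSG00000204531, chr6:31164337-31180731, minus strand, GRCh38), the master factor of pluripotency, had FPKM values of 115, 88.3 and 192 on Day0 and 0.0123, 0.016 and 0.0885 on Day21 (log2 fold change -11.67 ± 0.80, adjusted p = 0.000128). TDGF1 (ENSG00000241186, chr3:46574534-46582457, plus strand), a co-receptor for NODAL, stood at 115, 69.97 and 156 on Day0 and 0.0189, 0 and 0.02 on Day21 (log2 fold change -13.10 ± 0.69, adjusted p = 8.23e-05). Both were high in every Day0 library and close to absent in every Day21 library. STMN2 (ENSG00000104435, chr8:79611117-79666158, plus strand), a stathmin of growing axons, had 0.841, 0.827 and 0.872 on Day0 and 76.2, 63 and 65.8 on Day21 (log2 fold change 6.25 ± 0.22, adjusted p = 2.35e-05). VIM (ENSG00000026025, chr10:17228241-17237593, plus strand), the intermediate filament of neuroepithelial and mesenchymal cells, had 8.37, 6.79 and 10.9 on Day0 and 170.5, 119 and 109.7 on Day21 (log2 fold change 3.86 ± 0.26, adjusted p = 0.000128). NR2F1 (ENSG00000175745, chr5:93583222-93594611, plus strand), a nuclear receptor that patterns neural tissue, had 0, 0 and 0.0347 on Day0 and 19.98, 9.58 and 9.57 on Day21 (log2 fold change 9.99 ± 0.98, adjusted p = 0.000444). For none of these 5 genes did the libraries of the days overlap, which also held for 47.6% of all genes tested.

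In all, 2550 genes rose and 2459 fell, which is 13% and 12.6% of the genes tested, 25.6% together. The libraries of the days did not overlap for 47.6% of all genes tested, and for 2548 of the genes that rose and 2445 of those that fell. A lack of overlap, given below for single called genes, therefore came with nearly every call and is no further evidence. Changes were large: 761 genes rose and 894 fell by at least 16-fold, and 349 of those that rose had no count in any Day0 library, while 375 of those that fell had none in any Day21 library. Protein-coding genes made up 1925 of the genes that rose and 2024 of those that fell, and long noncoding RNAs 480 and 283. The median change over all genes tested was 0.012 on the log2 scale. With the Day42 libraries added to the fit, 266 genes rose and 238 fell, and 503 of these were among those called in the 6 libraries. Of the 326 called genes that the naming rule picked, 95 were also called in that fit. That fit also moved 85 of 110 counts of list members, per list and direction, by more than 1.5 times.

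**Figure D1:**
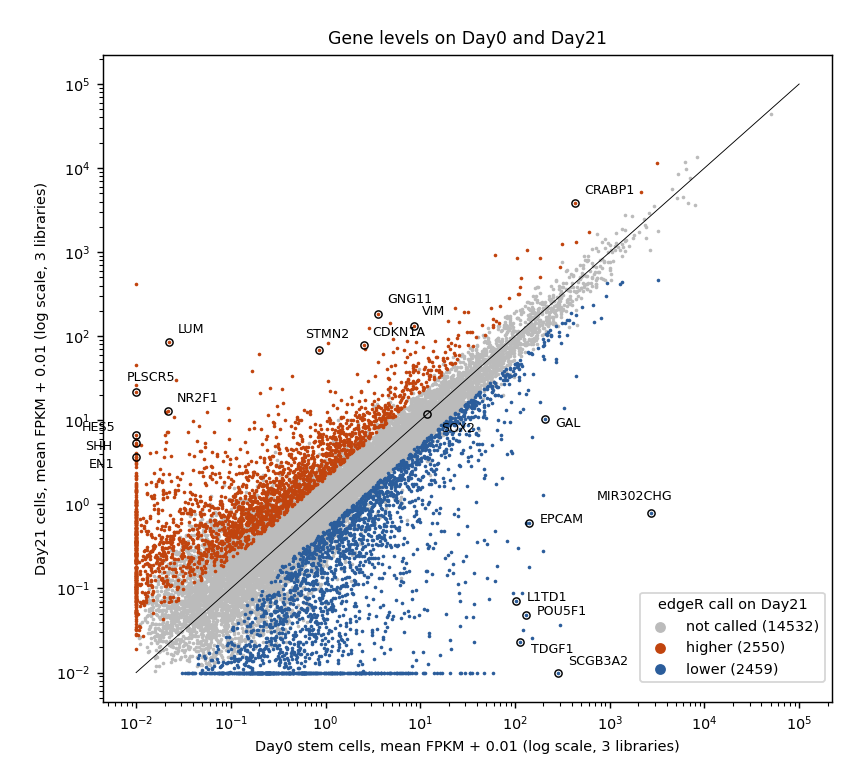
Mean FPKM of each tested gene on Day0 (x axis) and Day21 (y axis), both on log scales with 0.01 added, 1 point per gene and 3 libraries per day. The 2550 genes that rose lie above the diagonal and the 2459 that fell below it, and the columns of points at the edges are genes at 0 on a day.

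Total counts were 58526466 to 66515692 per library, with 22198 to 24741 genes above 0. Correlations of log2 CPM across genes, which are not independent replicates, were 0.921 to 0.942 within Day0, 0.950 to 0.959 within Day21 and 0.757 to 0.793 between the days. Spread was larger on Day0, with a biological coefficient of variation of 0.541 against 0.403 on Day21. No library stood with the other day.

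Of 6 stem cell markers, 5 fell and SOX2, which neural progenitors also express, did not pass the test. Of 7 progenitor markers, SOX1, PAX6, NES, HES5 and VIM rose, while SOX2 and FABP7 did not pass. All 6 markers of postmitotic neurons (STMN2, DCX, TUBB3, MAP2, ELAVL3 and ELAVL4) rose as well, so markers of both classes were higher on Day21. The call of TUBB3 (log2 fold change 2.43 ± 0.58, adjusted p = 0.0173) was lost without single libraries (adjusted p = 0.0621 without Day0 replicate 1 and 0.0549 without Day21 replicate 2, with changes of 2.50 without Day0 replicate 1 and 1.76 without Day21 replicate 2). In bulk libraries, fewer cells of a type and less RNA per cell cannot be told apart.

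Most pluripotency factors fell, and SOX2, SALL2 and KLF4 did not pass the test. Of 14 pluripotency transcription factors tested, 0 rose and 11 fell, with a median change of -7.58 (-6.44 with genes at 0 on a day set to their bound). NANOG, the homeobox factor that keeps stem cells from differentiating, had FPKM values of 3.74, 3.1 and 4.8 on Day0 and 0, 0.0308 and 0 on Day21 (log2 fold change -8.51 ± 1.12, adjusted p = 0.00154). VRTN and ZSCAN10, other factors of this state, had 9.68, 6.83 and 31.9 and 2.76, 2.68 and 8.04 on Day0 and no count on Day21, falls of at least 409-fold and at least 103-fold. ZFP42, known as REX1, had 7.08, 5.69 and 11.9 on Day0 and 0, 0.00639 and 0 on Day21 (log2 fold change -11.18 ± 0.75, adjusted p = 0.000128). Every Day0 library lay above every Day21 library for these genes. SOX2, shared by stem cells and neural progenitors, had 11.1, 9.93 and 14.2 on Day0 and 13.7, 10.5 and 11.8 on Day21 (log2 fold change -0.04 ± 0.19, adjusted p = 0.908), and its libraries of the days overlapped. SALL2, with 3.05, 2.65 and 3.43 on Day0 and 2.75, 1.92 and 1.84 on Day21 (log2 fold change -0.57 ± 0.22, adjusted p = 0.0874), lay lower in every Day21 library. KLF4, a reprogramming factor, was low on both days, with 0.137, 0.093 and 0.162 on Day0 and 0.0109, 0 and 0.0231 on Day21 (log2 fold change -3.47 ± 1.11, adjusted p = 0.0504).

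The core letters ATGCAAA of the octamer, the DNA motif that OCT4 and related POU factors recognise, occur in the promoter window of both NANOG, which fell, and SOX2, which did not pass the test. The windows shown run from 250 bases before to 50 bases after the annotated start and come from RefSeq on GRCh38.p14, where 10 of the 14 factors have one. They lie at chr12:7789152-7789451, plus strand, and chr3:181711675-181711974, plus strand. Capitals mark the letters ATGCAAA or their reverse complement, which start 120 bases before the NANOG start and 100 bases before the SOX2 start.
NANOG: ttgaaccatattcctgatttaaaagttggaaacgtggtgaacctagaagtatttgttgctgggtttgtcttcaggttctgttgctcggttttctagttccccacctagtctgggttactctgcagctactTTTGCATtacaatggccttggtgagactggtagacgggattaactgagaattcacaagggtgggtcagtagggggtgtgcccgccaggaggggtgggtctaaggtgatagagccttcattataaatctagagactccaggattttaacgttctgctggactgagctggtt
SOX2: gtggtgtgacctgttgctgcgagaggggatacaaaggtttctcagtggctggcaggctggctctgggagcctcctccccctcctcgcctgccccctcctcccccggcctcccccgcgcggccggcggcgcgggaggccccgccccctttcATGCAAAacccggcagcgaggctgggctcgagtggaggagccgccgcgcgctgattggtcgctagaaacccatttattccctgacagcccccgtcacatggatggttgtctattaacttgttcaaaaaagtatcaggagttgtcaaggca
Among the 10 factors, only these 2 windows held the core letters, which 4.46% of all 35116 promoter windows hold on either strand. A match is a description of the sequence and not a measured site.

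Other stem cell markers followed the core factors. Of 19 tested, 17 fell and 1 rose, with a median of -3.94 (-3.80 with genes at 0 on a day set to their bound). L1TD1, an RNA-binding protein derived from a LINE-1 element, had the smallest p of all genes that fell, with 85.7, 94.8 and 128 on Day0 and 0.0663, 0.0553 and 0.0625 on Day21 (log2 fold change -10.72 ± 0.30, adjusted p = 1.38e-05). CD9, a surface tetraspanin, had 49.5, 59.1 and 43.8 on Day0 and 0.262, 0.313 and 0.422 on Day21 (log2 fold change -7.28 ± 0.37, adjusted p = 7.57e-05). DPPA3 and LCK had 1.46, 1.8 and 2.07 and 4.54, 6.14 and 9.2 on Day0 and no count on Day21, falls of at least 14-fold and at least 156-fold. The exception was GPR19, an orphan receptor, with 2.56, 6.2 and 4.08 on Day0 and 12.9, 11.5 and 12.6 on Day21 (log2 fold change 1.47 ± 0.32, adjusted p = 0.0112). Its 3 Day21 libraries all lay above Day0.

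Long noncoding RNAs of stem cells showed some of the largest falls. Of 10 tested, 9 fell, with a median of -10.60 (-6.77 with genes at 0 on a day set to their bound), and their summed FPKM ranged over 2024 to 3885 on Day0 and 0.947 to 2.19 on Day21. Most of that sum was MIR302CHG, the host of the miR-302 cluster that marks human stem cells, with 3560, 2979 and 1611 on Day0 and 0.727, 0.217 and 1.4 on Day21 (log2 fold change -11.84 ± 0.91, adjusted p = 0.000188). ESRG had 126, 86.3 and 245 on Day0 and 0.0292, 0 and 0.019 on Day21 (log2 fold change -13.18 ± 0.83, adjusted p = 0.000121), and LNCPRESS1 had 38.1, 52.9 and 28.5 on Day0 and no count on Day21, a fall of at least 251-fold. The MIR302CHG value is uncertain because its span overlaps other gene models on the same strand.

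Ligands of the NODAL pathway fell together. Of 17 genes tested, 9 fell and 1 rose, with a median of -1.74. NODAL itself, its relative GDF3 and its inhibitor LEFTY2 had 8.01, 6.9 and 7.52, 36.2, 32.6 and 30.7 and 2.08, 1.54 and 6.27 on Day0. None had a count on Day21, so the falls were at least 112-fold, at least 297-fold and at least 52.2-fold. FOXH1, the transcription partner of the pathway's SMAD proteins, was also at 0 on Day21, after 3.27, 1.8 and 13.3 on Day0 (at least 84.6-fold lower). The receptor ACVR2A (-0.90 ± 0.64, adjusted p = 0.336), the signal carrier SMAD2 (-0.54 ± 0.21, adjusted p = 0.0903) and the Activin antagonist FST (0.25 ± 0.21, adjusted p = 0.433) did not pass. SMAD3, the other signal carrier, rose from a low level, with 0.0411, 0.107 and 0.121 on Day0 and 0.753, 0.424 and 0.439 on Day21 (log2 fold change 2.50 ± 0.44, adjusted p = 0.00502).

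Regulators that stem cells share with fetal tissue moved in both directions, with 28.6% called against 25.6% of all genes. Of 14 LIN28, MYC and oncofetal genes tested, 1 rose and 3 fell, with a median of -0.37 (2 rose without Day0 replicate 3). LIN28A, which blocks the let-7 microRNAs, had 11.3, 18.4 and 23.9 on Day0 and 5.13, 5.01 and 2.19 on Day21 (log2 fold change -2.17 ± 0.37, adjusted p = 0.00462). TRIM71 fell by less (log2 fold change -1.37 ± 0.25, adjusted p = 0.00563), and ARID3A rose, with 0.543, 0.568 and 0.632 on Day0 and 4.78, 4.2 and 2.96 on Day21 (log2 fold change 2.69 ± 0.24, adjusted p = 0.000289). HMGA1, a chromatin protein, had 38.9, 25.2 and 201 on Day0 and 60.9, 28.3 and 18.5 on Day21 (log2 fold change -1.34 ± 0.73, adjusted p = 0.214), and MYCN, a growth-promoting factor, had 3.24, 2.8 and 16.2 on Day0 and 6.07, 2.23 and 1.64 on Day21 (log2 fold change -1.22 ± 0.70, adjusted p = 0.238). In both, Day0 replicate 3 stood far above the other 2 Day0 libraries and Day21 replicate 1 above the other 2 Day21 libraries.

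Among DNA methylation enzymes, DNMT3B, the de novo methyltransferase of early embryos, fell, with 10.6, 12.2 and 21.1 on Day0 and 1.16, 0.658 and 0.742 on Day21 (log2 fold change -4.16 ± 0.31, adjusted p = 0.000166). The maintenance enzyme DNMT1 had 14.4, 15 and 20.8 on Day0 and 20.6, 15.3 and 15 on Day21 (log2 fold change -0.04 ± 0.19, adjusted p = 0.895) and did not pass. TET2, which oxidises methylcytosine, rose from 0.0994, 0.0799 and 0.0993 to 1.04, 0.384 and 0.385 (log2 fold change 2.55 ± 0.40, adjusted p = 0.00328). Of the 10 writers and erasers tested, 1 rose and 2 fell, a called share of 30% against 25.6% of all genes. These counts moved with single libraries (2 rose without Day0 replicate 2 or Day0 replicate 3 and 1 fell without Day0 replicate 1 or Day0 replicate 3 or Day21 replicate 1 or Day21 replicate 2 or Day21 replicate 3). Of 16 genes for subunits of the BAF chromatin remodeller and REST, 3 rose and 0 fell. That is 18.8% called, under the 25.6% of all genes. SMARCD3, a subunit found in neurons and heart, had 0.771, 0.935 and 0.871 on Day0 and 9.13, 7.83 and 9.66 on Day21 (log2 fold change 3.28 ± 0.22, adjusted p = 0.000127).

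Epithelial genes fell almost without exception. Of 26 adhesion and polarity genes tested, 25 fell and 0 rose, with a median of -7.08 (-6.64 with genes at 0 on a day set to their bound). EPCAM, the epithelial adhesion molecule on stem cells, had 109.9, 152 and 162 on Day0 and 0.647, 0.489 and 0.634 on Day21 (log2 fold change -7.95 ± 0.28, adjusted p = 2.35e-05). CLDN7, a claudin of tight junctions, had 119.7, 165 and 75.1 on Day0 and 0.138, 0.0186 and 0.0757 on Day21 (log2 fold change -10.64 ± 0.73, adjusted p = 0.000128). Every Day0 library lay far above every Day21 library for both. CRB3, a polarity protein, had 8.45, 11 and 13.2 on Day0 and no count on Day21, a fall of at least 124-fold. ESRP1, which directs epithelial splicing, had 2.2, 2.19 and 2.95 on Day0 and 0, 0 and 0.00102 on Day21 (log2 fold change -11.12 ± 0.62, adjusted p = 9.56e-05). The remaining gene, TJP3, had 0.0867, 0.0932 and 0.716 on Day0 and 0.0118, 0 and 0.0565 on Day21 (log2 fold change -3.62 ± 1.38, adjusted p = 0.0886) and did not pass.

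Genes known from the transition of epithelium to mesenchyme rose at the same time. Of 12 tested, 10 rose and 0 fell, with a median of 3.23. With all 9 libraries 3 rose, and 5 with an FPKM filter of 1. ZEB1, a repressor of E-cadherin, had 0.0905, 0.0561 and 0.0972 on Day0 and 3.88, 3.55 and 3.69 on Day21 (log2 fold change 5.42 ± 0.30, adjusted p = 9.32e-05), and its relative ZEB2 had 0.00842, 0.0038 and 0.0074 on Day0 and 0.675, 0.437 and 0.416 on Day21 (log2 fold change 6.17 ± 0.42, adjusted p = 0.000128). SNAI2, another such repressor that is also a neural crest gene, had 0.304, 0.339 and 0.285 on Day0 and 5.04, 3.73 and 3.35 on Day21 (log2 fold change 3.60 ± 0.28, adjusted p = 0.000192). For these 3 genes the days were well apart. SNAI1 had 0.472, 0.23 and 1.35 on Day0 and 0.869, 0.96 and 0.233 on Day21 (log2 fold change -0.02 ± 0.74, adjusted p = 0.99), and its libraries overlapped.

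Metallothioneins, small proteins that bind zinc and copper and are induced by metal through the factor MTF1, fell in most cases. Of 10 genes tested in this list, which also holds a zinc exporter, 9 fell and 0 rose, with a median of -5.43 (-3.39 with genes at 0 on a day set to their bound) and a summed FPKM of 339 to 748 on Day0 and 63.3 to 70.8 on Day21. MT1G had 242, 90.9 and 264 on Day0 and 1.46, 1.28 and 1.15 on Day21 (log2 fold change -7.30 ± 0.49, adjusted p = 0.000128), and MT1H had 132, 56.1 and 95.5 on Day0 and 0, 0.133 and 0.102 on Day21 (log2 fold change -10.26 ± 0.85, adjusted p = 0.000232). MT1E had 17.2, 11.6 and 13.3 on Day0 and no count on Day21, a fall of at least 107-fold, and MT1X and MT2A, chosen after their values were seen because a promoter window was at hand, fell by less. MT1X had 145, 77.5 and 114 on Day0 and 11.1, 12.4 and 13.9 on Day21 (log2 fold change -3.23 ± 0.32, adjusted p = 0.000481) and MT2A 123, 50.7 and 138 on Day0 and 51.8, 50.8 and 41.6 on Day21 (log2 fold change -1.17 ± 0.36, adjusted p = 0.0431). Day0 libraries lay above Day21 libraries for the first 4 of these genes, while those of MT2A overlapped. The call of MT2A was lost in 5 of the 6 fits without a library (adjusted p = 0.142 without Day0 replicate 1, 0.0848 without Day0 replicate 3, 0.119 without Day21 replicate 1, 0.0974 without Day21 replicate 2 and 0.133 without Day21 replicate 3). MT3, the brain form, had 0.148, 0.0584 and 0.2 on Day0 and 0.118, 0.387 and 0.416 on Day21 (log2 fold change 1.03 ± 0.75, adjusted p = 0.352) and did not pass. The genes of this family are close copies of each other, so reads may have been divided between them.

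RefSeq promoter windows were at hand for 4 of the 10 genes of the list, and all 4 hold the core of the metal response element, TGCGCNC or TGCACNC on either strand. Capitals mark these letters in MT2A (chr16:56608334-56608633, plus strand), MT1H (chr16:56669564-56669863, plus strand) and MT1X (chr16:56682220-56682519, plus strand), which sit close together on chromosome 16.
MT2A: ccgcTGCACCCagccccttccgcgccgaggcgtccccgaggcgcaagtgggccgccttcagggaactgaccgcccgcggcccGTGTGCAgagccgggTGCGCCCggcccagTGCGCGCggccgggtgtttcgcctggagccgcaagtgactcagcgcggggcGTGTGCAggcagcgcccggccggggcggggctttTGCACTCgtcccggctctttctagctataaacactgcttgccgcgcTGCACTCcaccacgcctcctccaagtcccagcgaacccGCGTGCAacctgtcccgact
MT1H: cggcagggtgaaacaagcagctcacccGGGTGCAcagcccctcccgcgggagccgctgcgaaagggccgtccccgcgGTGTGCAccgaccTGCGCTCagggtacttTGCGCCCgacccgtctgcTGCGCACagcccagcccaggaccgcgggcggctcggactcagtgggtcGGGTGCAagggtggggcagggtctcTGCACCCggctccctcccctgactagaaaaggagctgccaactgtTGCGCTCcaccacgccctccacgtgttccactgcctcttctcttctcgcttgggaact
MT1X: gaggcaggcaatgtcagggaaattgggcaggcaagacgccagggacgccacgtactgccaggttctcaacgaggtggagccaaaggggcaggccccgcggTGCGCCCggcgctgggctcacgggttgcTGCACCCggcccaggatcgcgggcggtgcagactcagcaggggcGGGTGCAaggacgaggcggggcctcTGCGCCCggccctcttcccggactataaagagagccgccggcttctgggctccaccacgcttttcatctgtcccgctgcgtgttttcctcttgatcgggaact
The window of MT2A holds 8 matches, that of MT1H 8 and that of MT1X 4, and the motif occurs in 29.6% of all windows. No measurement of metal or of MTF1 binding was made.

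**Figure D2:**
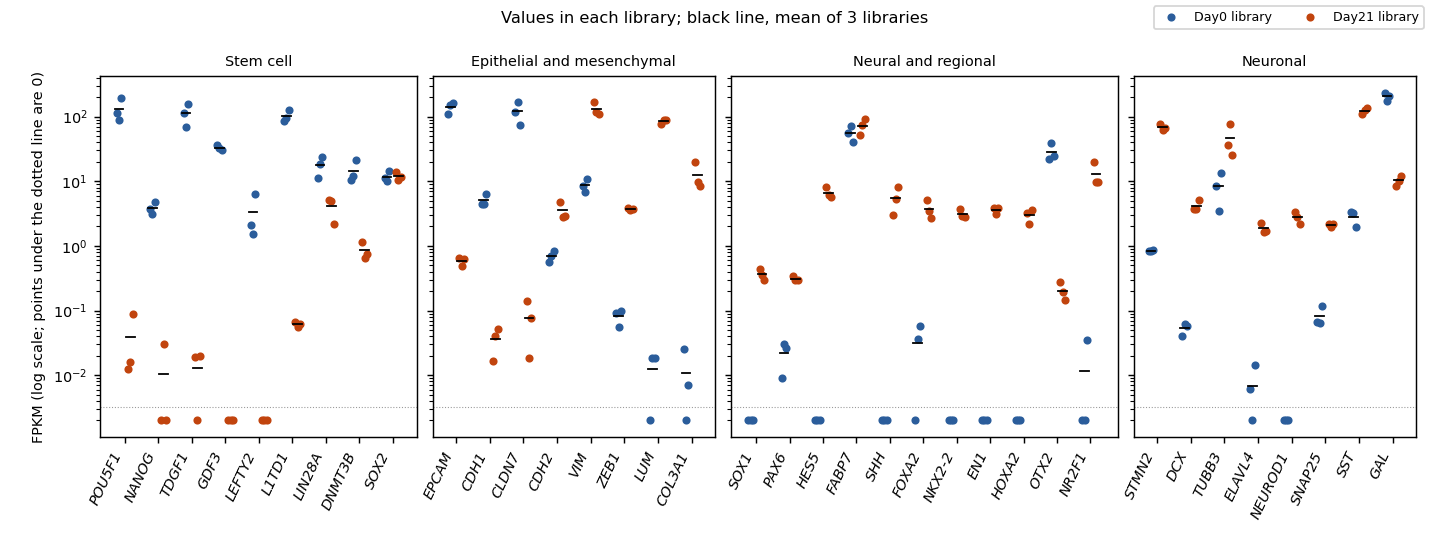
FPKM of 36 genes in each library on a log scale, 3 points per day and gene, with a black line at the mean of the 3 libraries. Points under the dotted line are 0. Stem cell and epithelial genes lie lower on Day21 with the exception of SOX2, and regional and neuronal genes lie higher with the exception of FABP7, OTX2 and GAL.

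Neuroepithelial genes rose. Of 17 genes of neuroepithelium and radial glia tested, 14 rose and 0 fell, with a median of 2.48. With all 9 libraries 3 rose, and 11 with an FPKM filter of 1. SOX1, one of the earliest neural genes, had no count on Day0 and 0.433, 0.36 and 0.292 on Day21, a rise of at least 9.99-fold. PAX6, an eye and neural tube factor, had 0.0092, 0.0307 and 0.0266 on Day0 and 0.341, 0.297 and 0.301 on Day21 (log2 fold change 3.72 ± 0.44, adjusted p = 0.000973). Both stayed at low levels on Day21. FABP7, a lipid-binding protein of radial glia, was already high on Day0, with 55.3, 71.9 and 40.1 on Day0 and 51.7, 73 and 90.7 on Day21 (log2 fold change 0.31 ± 0.35, adjusted p = 0.559). PROM1 had 0.857, 2.2 and 2.35 on Day0 and 2.45, 1.95 and 2.17 on Day21 (log2 fold change 0.24 ± 0.34, adjusted p = 0.65), and both genes' libraries overlapped between the days. Of 15 SOX factors tested, 6 rose and 1 fell. SOX5 and SOX6 rose from near 0 (5.11 ± 0.44 and 6.34 ± 0.70, adjusted p = 0.000263 and 0.000728). SOX4, far more abundant than either, was not called, with 278, 279.5 and 194 on Day0 and 274, 325 and 320.2 on Day21 (log2 fold change 0.22 ± 0.30, adjusted p = 0.643).

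NOTCH targets rose unequally. Of 22 ligands, receptors and targets tested, 6 rose and 1 fell, with a median of 0.90. The called share was 31.8%, against 25.6% of all genes. Among ligands, DLL1 had 0.00456, 0.013 and 0.0991 on Day0 and 1.07, 0.351 and 0.729 on Day21 (log2 fold change 4.10 ± 0.92, adjusted p = 0.0132), and the non-canonical ligand DLK1 had 0.831, 0.248 and 0.42 on Day0 and 10.8, 8.01 and 9.23 on Day21 (log2 fold change 4.11 ± 0.49, adjusted p = 0.00101). DLL3 had 3.57, 3.27 and 4.32 on Day0 and 6.3, 4.08 and 4.3 on Day21 (log2 fold change 0.31 ± 0.22, adjusted p = 0.342) and did not pass. Among targets, HES5, the repressor that keeps progenitors dividing, had no count on Day0 and 8.2, 6.07 and 5.78 on Day21, a rise of at least 53.4-fold. HES4 had 0.495, 0.0666 and 0.466 on Day0 and 15.7, 19.5 and 12.6 on Day21 (log2 fold change 5.42 ± 0.70, adjusted p = 0.00145), and HES1 had 7.87, 5.66 and 7.31 on Day0 and 49.6, 51.6 and 45.5 on Day21 (log2 fold change 2.75 ± 0.23, adjusted p = 0.000262). In contrast HEY2 fell, with 6.75, 5.56 and 5.78 on Day0 and 0.882, 0.689 and 0.552 on Day21 (log2 fold change -3.18 ± 0.28, adjusted p = 0.000267). The libraries of the days did not overlap in any of these 4 targets, as in nearly all called genes and 47.6% of all genes tested.

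CSL, the DNA-binding partner of NOTCH, recognises the letters GTGGGAA. They are in the windows of all 4 of these targets, of which 3 rose and 1 fell. Capitals mark them or their reverse complement in HES5 (chr1:2530214-2530513, minus strand), HES1 (chr3:194135898-194136197, plus strand), HES4 (chr1:1000048-1000347, minus strand) and HEY2 (chr6:125749382-125749681, plus strand).
HES5: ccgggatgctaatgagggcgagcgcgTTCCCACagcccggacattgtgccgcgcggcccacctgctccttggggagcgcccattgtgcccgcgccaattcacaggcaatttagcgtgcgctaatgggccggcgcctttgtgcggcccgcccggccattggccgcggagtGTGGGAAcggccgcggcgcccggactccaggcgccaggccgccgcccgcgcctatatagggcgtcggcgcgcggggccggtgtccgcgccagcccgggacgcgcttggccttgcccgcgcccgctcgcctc
HES1: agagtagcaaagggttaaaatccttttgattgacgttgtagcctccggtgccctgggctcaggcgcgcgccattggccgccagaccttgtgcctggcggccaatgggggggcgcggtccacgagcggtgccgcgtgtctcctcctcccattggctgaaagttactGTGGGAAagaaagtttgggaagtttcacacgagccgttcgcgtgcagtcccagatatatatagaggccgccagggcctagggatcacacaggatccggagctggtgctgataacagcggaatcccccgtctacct
HES4: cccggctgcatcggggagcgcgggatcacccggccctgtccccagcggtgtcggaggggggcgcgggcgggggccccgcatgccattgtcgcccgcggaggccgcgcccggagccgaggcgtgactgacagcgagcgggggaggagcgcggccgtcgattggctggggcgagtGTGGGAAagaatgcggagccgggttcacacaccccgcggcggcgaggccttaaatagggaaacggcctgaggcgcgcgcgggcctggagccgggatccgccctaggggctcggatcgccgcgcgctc
HEY2: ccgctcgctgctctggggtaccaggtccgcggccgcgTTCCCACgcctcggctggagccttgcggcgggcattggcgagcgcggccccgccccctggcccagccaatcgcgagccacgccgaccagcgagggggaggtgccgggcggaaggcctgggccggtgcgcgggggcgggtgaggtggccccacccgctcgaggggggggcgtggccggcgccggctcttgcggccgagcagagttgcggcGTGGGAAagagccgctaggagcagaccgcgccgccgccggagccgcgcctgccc
HES5 and HEY2 each hold 2 matches, and HES1 and HES4 1 each. The match nearest the start begins 81 bases before it in HES5, 85 in HES1 and 77 in HES4, but only 4 in HEY2, where it spans the start. Of 16 genes of the list with a window, 5 hold the letters, against 6.25% of all windows. The other gene, HEYL, was not called (log2 fold change 0.16 ± 1.69, adjusted p = 0.957) except without Day0 replicate 3 (adjusted p = 0.0144 without Day0 replicate 3, with a change of 8.27 without Day0 replicate 3).

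Transcription factors that commit progenitors to neurons rose from near 0. Of 23 tested, 18 rose and 1 fell, with a median of 5.34 (4.27 with genes at 0 on a day set to their bound). With all 9 libraries 2 rose, and 6 with an FPKM filter of 1. NEUROD1 had no count on Day0 and 3.4, 2.77 and 2.19 on Day21, a rise of at least 50.2-fold. NEUROD4 and NEUROG2 were likewise at 0 on Day0, with 0.587, 0.341 and 0.497 and 0.204, 0.328 and 0.158 on Day21, rises of at least 11.3-fold and at least 3.31-fold. EBF1, which acts in young neurons, had 0.0126, 0.0157 and 0 on Day0 and 1.47, 1.04 and 1.45 on Day21 (log2 fold change 6.97 ± 0.82, adjusted p = 0.000948). Day21 libraries lay above Day0 libraries for all 4, at low levels. ATOH1, the factor of the rhombic lip, went the other way, with 0.12, 0.108 and 0.445 on Day0 and no count on Day21, a fall of at least 3.44-fold.

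Progenitor factors of the serotonin lineage rose, while the postmitotic factor FEV did not pass the test. Of 11 tested, 6 rose and 1 fell, with a median of 3.44. With all 9 libraries 1 rose, and 5 with an FPKM filter of 1. The progenitor genes NKX2-2 and FOXA2 rose, and NKX2-2 had no count on Day0 and 3.66, 2.9 and 2.81 on Day21, a rise of at least 40.1-fold. EN1, a gene of the midbrain and the first hindbrain segment, had no count on Day0 and 3.85, 3.12 and 3.9 on Day21 (at least 62.9-fold higher). FEV, which marks postmitotic serotonin neurons, had 0, 0 and 0.0606 on Day0 and 0.116, 0.453 and 0.371 on Day21 (log2 fold change 3.92 ± 1.44, adjusted p = 0.0789) and did not pass, although it did without Day0 replicate 3 (adjusted p = 0.0165 without Day0 replicate 3, with a change of 8.35 without Day0 replicate 3). GATA3 had 0.119, 0.141 and 0.0586 on Day0 and 0.101, 0.0714 and 0.0563 on Day21 (log2 fold change -0.53 ± 0.69, adjusted p = 0.612), and its libraries overlapped. TPH2, the reporter's locus, was near 0 on both days, with counts of 17, 81 and 87 on Day0 and 0, 4 and 4 on Day21 (log2 fold change -4.49 ± 1.15, adjusted p = 0.0227). Its call as lower was lost without single libraries (adjusted p = 0.0574 without Day0 replicate 2, 0.0632 without Day21 replicate 2 and 0.0578 without Day21 replicate 3, with changes of -4.22 without Day0 replicate 2, -4.91 without Day21 replicate 2 and -4.91 without Day21 replicate 3).

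Most floor plate genes rose. Of 12 floor plate genes tested, 9 rose and 0 fell (0 rose with all 9 libraries and 4 with an FPKM filter of 1), with a median of 4.91 (3.99 with genes at 0 on a day set to their bound). SHH, the ventral signal of the neural tube, had no count on Day0 and 2.99, 5.3 and 8.03 on Day21, a rise of at least 178-fold. FOXA2, the floor plate's defining factor, had 0, 0.0364 and 0.0571 on Day0 and 5.11, 3.46 and 2.68 on Day21 (log2 fold change 6.77 ± 0.80, adjusted p = 0.000949). CORIN, a surface protease of the floor plate, had 0.0242, 0.00479 and 0 on Day0 and 0.456, 0.406 and 0.614 on Day21 (log2 fold change 5.51 ± 1.06, adjusted p = 0.00748). All Day21 libraries of these genes lay above Day0. ALCAM had 1.09, 1.07 and 2.13 on Day0 and 1.58, 0.963 and 1.12 on Day21 (log2 fold change -0.28 ± 0.30, adjusted p = 0.525) and did not pass.

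Some receptors and effectors of the hedgehog signal rose. Of 13 tested, 4 rose and 0 fell (0 rose with all 9 libraries and 0 with an FPKM filter of 1), with a median of 1.06. The called share was 30.8%, against 25.6% of all genes. PTCH1, the receptor that is itself induced by the signal, had 0.0555, 0.0503 and 0.0681 on Day0 and 1.01, 0.381 and 0.365 on Day21 (log2 fold change 3.21 ± 0.41, adjusted p = 0.00142), and the antagonist HHIP had 0.306, 0.269 and 0.227 on Day0 and 0.713, 0.724 and 0.722 on Day21 (log2 fold change 1.35 ± 0.28, adjusted p = 0.0101). GLI2, the main activator, had 2.19, 1.24 and 7.21 on Day0 and 5.24, 2.54 and 1.75 on Day21 (log2 fold change -0.21 ± 0.60, adjusted p = 0.827), and SMO 0.369, 0.285 and 0.515 on Day0 and 0.537, 0.578 and 0.456 on Day21 (log2 fold change 0.38 ± 0.35, adjusted p = 0.465). Neither passed, and GLI2 showed the same high libraries as HMGA1, replicate 3 of Day0 and replicate 1 of Day21.

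Position genes marked several regions. Of 8 ventral factors tested, 7 rose and 1 fell (2 fell without Day0 replicate 2, 0 fell without Day0 replicate 3 or Day21 replicate 2 or Day21 replicate 3). With all 9 libraries 1 of them rose, and 2 with the FPKM filter. NKX6-1, of ventral hindbrain progenitors, had no count on Day0 and 1.31, 0.795 and 1.17 on Day21 (at least 20.3-fold higher). NKX2-1 and OLIG2, of the ventral forebrain and of motor neuron progenitors, had no count on Day21. Among dorsal and neural crest genes, 8 of 15 rose and 3 fell. TFAP2B, a neural crest factor, had no count on Day0 and 0.898, 0.539 and 0.6 on Day21 (at least 25.1-fold higher), whereas FOXD3, shared by stem cells and crest, fell (log2 fold change -6.19 ± 1.23, adjusted p = 0.00848).

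Along the head-to-tail axis, HOXA2, expressed in the hindbrain, was the single HOX gene in the table that passed the filter on low counts. Of 15 HOX genes of paralogs 1 to 5, 9 were in the table, and HOXB2 was among those without an entry. HOXA2 had no count on Day0 and 3.25, 2.19 and 3.53 on Day21, a rise of at least 42.3-fold. Of 24 HOX genes of paralogs 6 to 13, genes of the spinal cord, 10 were in the table, and their summed FPKM was at most 0.0352 in any Day21 library. The other 14 had no entry under their symbols, so their levels are not known. Of 18 forebrain, midbrain and boundary factors tested, 8 rose and 3 fell (5 rose without Day21 replicate 1). GBX2, of the anterior hindbrain, had 0, 0 and 0.0398 on Day0 and 2.79, 1.76 and 1.11 on Day21 (log2 fold change 6.91 ± 1.07, adjusted p = 0.00299), and SIX3, of the anterior forebrain and eye, had 0, 0 and 0.0184 on Day0 and 1.96, 1.43 and 1.52 on Day21 (log2 fold change 7.56 ± 0.93, adjusted p = 0.00113). OTX2, which marks forebrain and midbrain as well as stem cells, had 21.7, 38.8 and 24.9 on Day0 and 0.273, 0.197 and 0.144 on Day21 (log2 fold change -7.16 ± 0.38, adjusted p = 8.23e-05). HESX1, an anterior gene also high in stem cells, fell from 48.3, 23.3 and 19.6 to 0.187, 0.353 and 0.162 (log2 fold change -7.07 ± 0.62, adjusted p = 0.000278). Genes known from more than 1 region were thus higher on Day21.

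Retinoic acid, a signal that patterns the hindbrain, works through binding proteins, receptors and degrading enzymes. Of 23 such genes and NR2F receptors tested, 10 rose and 4 fell, with a median of 1.34. CRABP1, which binds retinoic acid in the cytoplasm, was among the 10 most abundant protein-coding genes on Day21 outside ribosomal and mitochondrial ones, with 365, 298 and 634 on Day0 and 4558, 3870 and 2997 on Day21 (log2 fold change 3.09 ± 0.35, adjusted p = 0.000795). Its relative CRABP2 fell, with 32.6, 33.8 and 39 on Day0 and 15.5, 16.1 and 14.3 on Day21 (log2 fold change -1.25 ± 0.19, adjusted p = 0.00294). NR2F2 rose with NR2F1, with 0, 0 and 0.03 on Day0 and 8.23, 5.61 and 6.44 on Day21 (log2 fold change 9.18 ± 1.03, adjusted p = 0.000795). The HOX cofactors MEIS1 and MEIS2 rose from near 0 (7.98 ± 1.28 and 7.29 ± 0.88, adjusted p = 0.00348 and 0.00107). DHRS3, a retinal reductase that lowers retinoic acid, fell from 16.4, 28.2 and 7.62 to 1.27, 1.64 and 3.28 (log2 fold change -3.14 ± 0.60, adjusted p = 0.00727).

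WNT, FGF and BMP genes exchanged members rather than moving one way. Among WNT genes 11 of 34 rose and 6 fell. The ligand WNT7A had 0.0117, 0 and 0 on Day0 and 4.7, 3.76 and 3.7 on Day21 (log2 fold change 9.83 ± 0.84, adjusted p = 0.000262). Of its receptors FZD10 had no count on Day0 and 0.359, 0.372 and 0.337 on Day21 (at least 7.16-fold higher), while FZD7, the receptor typical of stem cells, had 2.16, 3.51 and 4.21 on Day0 and 0.713, 0.329 and 0.503 on Day21 (log2 fold change -2.75 ± 0.34, adjusted p = 0.00116). Inhibitors WIF1 and SFRP5 fell, WIF1 by 7.52 on the log2 scale (adjusted p = 0.00202) and SFRP5 to no count (at least 7.55-fold lower). Among FGF genes 10 of 26 rose and 3 fell. FGFBP3, a carrier that releases FGF from the matrix, had 21.6, 18.8 and 28.9 on Day0 and 209.8, 229.8 and 203 on Day21 (log2 fold change 3.17 ± 0.25, adjusted p = 0.000193). FGF2 and FGF4, ligands of stem cells, fell, FGF2 with 0.727, 1.01 and 1.15 on Day0 and 0.296, 0.1 and 0.0504 on Day21 (log2 fold change -2.80 ± 0.57, adjusted p = 0.00927) and FGF4 to no count (at least 4.66-fold lower). ETV5, a target of the signal, had 3.34, 2.72 and 2.92 on Day0 and 3.58, 2.76 and 3.1 on Day21 (log2 fold change -0.01 ± 0.21, adjusted p = 0.975) and did not pass. Among BMP genes 5 of 20 rose and 3 fell (8 rose without Day0 replicate 2). Their called share was 40%, against 25.6% of all genes. The targets ID1 and ID4 moved in opposite directions, ID1 with 42.4, 32.4 and 51.6 on Day0 and 5.02, 3.38 and 4.94 on Day21 (log2 fold change -3.31 ± 0.26, adjusted p = 0.000192) and ID4 with 1.45, 1.43 and 2.16 on Day0 and 12, 9.4 and 8.96 on Day21 (log2 fold change 2.53 ± 0.22, adjusted p = 0.000267). The ligand BMP7 had 0.756, 0.739 and 0.943 on Day0 and 8.13, 5.48 and 5.16 on Day21 (log2 fold change 2.85 ± 0.22, adjusted p = 0.000194).

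Neuronal cytoskeleton genes rose, in a list with no member that fell. Of 29 stathmins, tubulins and microtubule proteins tested, 16 rose, with a median of 1.96 (1 fell without Day0 replicate 2 or Day0 replicate 3). DCX, which stabilises microtubules in migrating neurons, had 0.0409, 0.0628 and 0.0582 on Day0 and 3.7, 3.7 and 5.06 on Day21 (log2 fold change 6.18 ± 0.31, adjusted p = 7.57e-05). STMN4 had 0.187, 0.287 and 0.235 on Day0 and 8.87, 10.7 and 14.7 on Day21 (log2 fold change 5.53 ± 0.36, adjusted p = 0.000122) and MAP6 0.245, 0.231 and 0.322 on Day0 and 13.3, 7.89 and 7.57 on Day21 (log2 fold change 5.08 ± 0.27, adjusted p = 8.23e-05). The Day21 libraries stood far above every Day0 library for these 3. The general tubulin TUBB had 296, 228 and 715 on Day0 and 766, 422 and 391 on Day21 (log2 fold change 0.29 ± 0.43, adjusted p = 0.658), and its libraries overlapped. Tubulin genes resemble each other closely, so their counts may be shared.

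RNA-binding proteins of neurons included ELAVL3 and ELAVL4. ELAVL3 had no count on Day0 and 0.356, 0.273 and 0.253 on Day21 (at least 8.48-fold higher), and ELAVL4 had 0.00613, 0 and 0.0146 on Day0 and 2.28, 1.64 and 1.72 on Day21 (log2 fold change 7.94 ± 0.77, adjusted p = 0.000413). Of the 21 tested in this list, 7 rose and 2 fell. The splicing factor NOVA1 had 0.163, 0.221 and 0.382 on Day0 and 3.07, 2.85 and 3.29 on Day21 (log2 fold change 3.54 ± 0.31, adjusted p = 0.000293). RBFOX3, known as the mature neuron antigen NeuN, was among those that fell, with 0.272, 0.171 and 0.298 on Day0 and 0.0682, 0.0767 and 0.0316 on Day21 (log2 fold change -2.13 ± 0.48, adjusted p = 0.0131). Among axon guidance genes, 19 of 51 rose and 6 fell. The repellent SLIT1 had 0.0149, 0.0902 and 0.0536 on Day0 and 3.21, 1.93 and 1.97 on Day21 (log2 fold change 5.38 ± 0.59, adjusted p = 0.000728), the chemokine receptor CXCR4 0.302, 0.241 and 0.865 on Day0 and 12.1, 9.4 and 7.1 on Day21 (log2 fold change 4.29 ± 0.50, adjusted p = 0.000881), and EPHA1 fell to no count (at least 80.6-fold lower).

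Genes of mature synapses divided more evenly. Of 27 vesicle and release genes tested, 6 rose and 5 fell, with a median of 0.50, a called share of 40.7%. SNAP25, part of the release machinery, had 0.0672, 0.065 and 0.117 on Day0 and 2.16, 1.99 and 2.2 on Day21 (log2 fold change 4.56 ± 0.34, adjusted p = 0.000173), and VAMP2, its partner on vesicles, had 2.4, 2.1 and 3.25 on Day0 and 14.3, 14.1 and 13.4 on Day21 (log2 fold change 2.38 ± 0.22, adjusted p = 0.000343). RAB3B had 3.98, 4.97 and 5.92 on Day0 and 0.55, 0.432 and 0.451 on Day21 (log2 fold change -3.43 ± 0.20, adjusted p = 0.000105) and SYN3 0.521, 0.491 and 1.04 on Day0 and 0.0311, 0.0562 and 0.0304 on Day21 (log2 fold change -4.10 ± 0.47, adjusted p = 0.00089), both higher in every stem cell library. Of 34 channels and receptors, 7 rose and 6 fell, a called share of 38.2% against 25.6% of all genes. The glutamate receptor gene GRIA1 rose (log2 fold change 3.05 ± 0.39, adjusted p = 0.00142) while GRIA3 fell (log2 fold change -2.72 ± 0.30, adjusted p = 0.000728). Synaptic adhesion genes rose in 6 of 27 cases and fell in 0, a called share of 22.2% against 25.6% of all genes. These counts rested on single libraries (2 rose without Day0 replicate 1, 1 rose without Day21 replicate 1 or Day21 replicate 2 and 1 fell without Day0 replicate 2 or Day21 replicate 2). CADM1 had 1.29, 1.35 and 1.39 on Day0 and 8.62, 7.61 and 8.79 on Day21 (log2 fold change 2.56 ± 0.19, adjusted p = 0.000172).

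Transmitter genes moved in both directions. Of 21 tested, 5 rose and 3 fell, with a median of 0.06. The called share was 38.1%, against 25.6% of all genes. DDC, the enzyme that completes serotonin and dopamine synthesis, had no count on Day0 and 1.48, 1.36 and 1.47 on Day21, a rise of at least 27.1-fold. DBH, which makes noradrenaline, and SLC18A1, a vesicular monoamine transporter, were also at 0 on Day0, with 0.478, 0.368 and 0.197 and 0.425, 0.215 and 0.3 on Day21 (at least 5.75-fold and at least 7.35-fold higher). The related transporter SLC18A2 fell, with 0.414, 0.876 and 0.539 on Day0 and 0.00532, 0.0117 and 0.0223 on Day21 (log2 fold change -5.47 ± 0.69, adjusted p = 0.00128). PTS and QDPR, which make and recycle the cofactor of tryptophan hydroxylase, stood at 33.1, 47.5 and 19.4 on Day0 and 14.9, 22.4 and 26.7 on Day21 and at 20.5, 22.7 and 15.9 on Day0 and 17.6, 18.5 and 21 on Day21 (adjusted p = 0.245 and 0.761) and did not pass. The gene for the cholinergic enzyme CHAT had no count in any of the 6 libraries.

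Peptide genes moved in both directions. Of 31 neuropeptides, granins and processing enzymes tested, 10 rose and 11 fell. SST, somatostatin, had 3.34, 3.21 and 1.97 on Day0 and 111, 126 and 136 on Day21 (log2 fold change 5.37 ± 0.36, adjusted p = 0.000128). GAL, galanin, a peptide that stem cells are known to express, had 233, 175 and 210.3 on Day0 and 8.46, 10.1 and 12.3 on Day21 (log2 fold change -4.38 ± 0.30, adjusted p = 0.000128). SCG2, a granin of secretory vesicles, had 0.163, 0.11 and 0.224 on Day0 and 3.02, 2.03 and 2.11 on Day21 (log2 fold change 3.76 ± 0.37, adjusted p = 0.000429), while CCK had 1.35, 0.989 and 1.15 on Day0 and 0, 0.0469 and 0 on Day21 (log2 fold change -6.18 ± 1.19, adjusted p = 0.00735). No library of a day overlapped the other day in these 4 genes, as in nearly all called genes and 47.6% of all genes tested.

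Matrix and connective tissue genes also rose, among markers of cells other than neural ones. Of 23 such markers tested, 14 rose and 5 fell, and their summed FPKM was 53.5 to 92.3 on Day0 and 302 to 484 on Day21. LUM, the proteoglycan lumican, had 0, 0.0186 and 0.0185 on Day0 and 77.7, 89.5 and 88.2 on Day21 (log2 fold change 12.59 ± 0.58, adjusted p = 7.57e-05), DCN, decorin, had 0, 0 and 0.00382 on Day0 and 5.56, 4.98 and 4.5 on Day21 (log2 fold change 11.71 ± 0.69, adjusted p = 0.000104), and BGN, biglycan, had 0.115, 0.0204 and 0.339 on Day0 and 62.3, 31.2 and 23.6 on Day21 (log2 fold change 7.84 ± 0.88, adjusted p = 0.000765). ACTA2, smooth muscle actin, had 0.535, 0.229 and 0.533 on Day0 and 37.9, 29.8 and 32.2 on Day21 (log2 fold change 6.17 ± 0.40, adjusted p = 0.000122), whereas TAGLN and PDGFRA, also found in mesenchyme, fell (-4.38 ± 0.24 and -2.93 ± 0.47, adjusted p = 9.02e-05 and 0.00348). The other members that fell were MYL9, CNN1 and THBS2. Of the smooth muscle genes ACTA2, TAGLN, MYL9 and CNN1, only ACTA2 rose. Of these markers only TCF21 was at 0 in all Day21 libraries. Among collagens 12 of 22 rose and 1 fell, with a summed FPKM of 4.87 to 10.5 on Day0 and 21.5 to 45.9 on Day21. COL3A1 had 0.025, 0 and 0.00704 on Day0 and 19.7, 9.77 and 8.57 on Day21 (log2 fold change 10.10 ± 0.88, adjusted p = 0.000277). VIM and the mesenchymal transition genes moved with this list, and its part in their rise was not tested.

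Markers of other lineages were lower or mixed. Of 11 mesoderm, heart and muscle markers tested, 1 rose and 5 fell (2 rose without Day0 replicate 3), with a summed FPKM of 118 to 157 on Day0 and 6.86 to 8.3 on Day21, and TBXT, HAND1, TNNT2, MYL7 and DES were at 0 on Day21. ACTC1 and TNNT1, actin and troponin genes, were high in stem cells, ACTC1 with 52.6, 47.5 and 86.4 on Day0 and 0.514, 0.422 and 0.463 on Day21 (log2 fold change -7.10 ± 0.30, adjusted p = 6.47e-05). Endoderm and yolk sac markers summed to 259 to 616 on Day0 and 31.4 to 32.3 on Day21, and 3 of 11 rose and 5 fell. GATA6 and CDX2 were at 0 on Day21, and SOX17 had no count on either day. APOE, a lipid carrier, was the largest part of the Day0 sum, with 282, 174 and 521 on Day0 and 16, 13.5 and 12.2 on Day21 (log2 fold change -4.59 ± 0.41, adjusted p = 0.000286), while TTR, transthyretin, had 0.0352, 0 and 0 on Day0 and 7.77, 5.9 and 7.88 on Day21 (log2 fold change 9.04 ± 0.96, adjusted p = 0.000612). Placode and lens markers summed to 9.49 to 13.8 on Day0 and 24.5 to 31.3 on Day21, with 3 of 13 higher and 2 lower. The lens crystallin CRYBA1 had no count on Day0 and 21.5, 27.8 and 28.7 on Day21 (at least 128-fold higher), although FOXE3 and CRYAA, which define the lens, were at 0 on Day21. Endothelial, blood and microglia markers summed to 8.56 to 9.4 on Day0 and 1.79 to 2.41 on Day21, with 2 of 12 higher and 2 lower, and SPI1 and CX3CR1 at 0 on Day21. Astrocyte and oligodendrocyte markers summed to 27.3 to 34.8 on Day0 and 7.35 to 9.59 on Day21, with 1 of 12 higher and 3 lower (2 rose without Day0 replicate 3) and MAG at 0. The called shares were 54.55% for mesoderm, 72.7% for endoderm and 38.5% for placode and lens markers, against 25.6% of all genes. For endothelial, blood and microglia markers the share was 33.3%, as for astrocyte and oligodendrocyte markers. The part of these cell types in the results above was not tested.

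**Figure D3:**
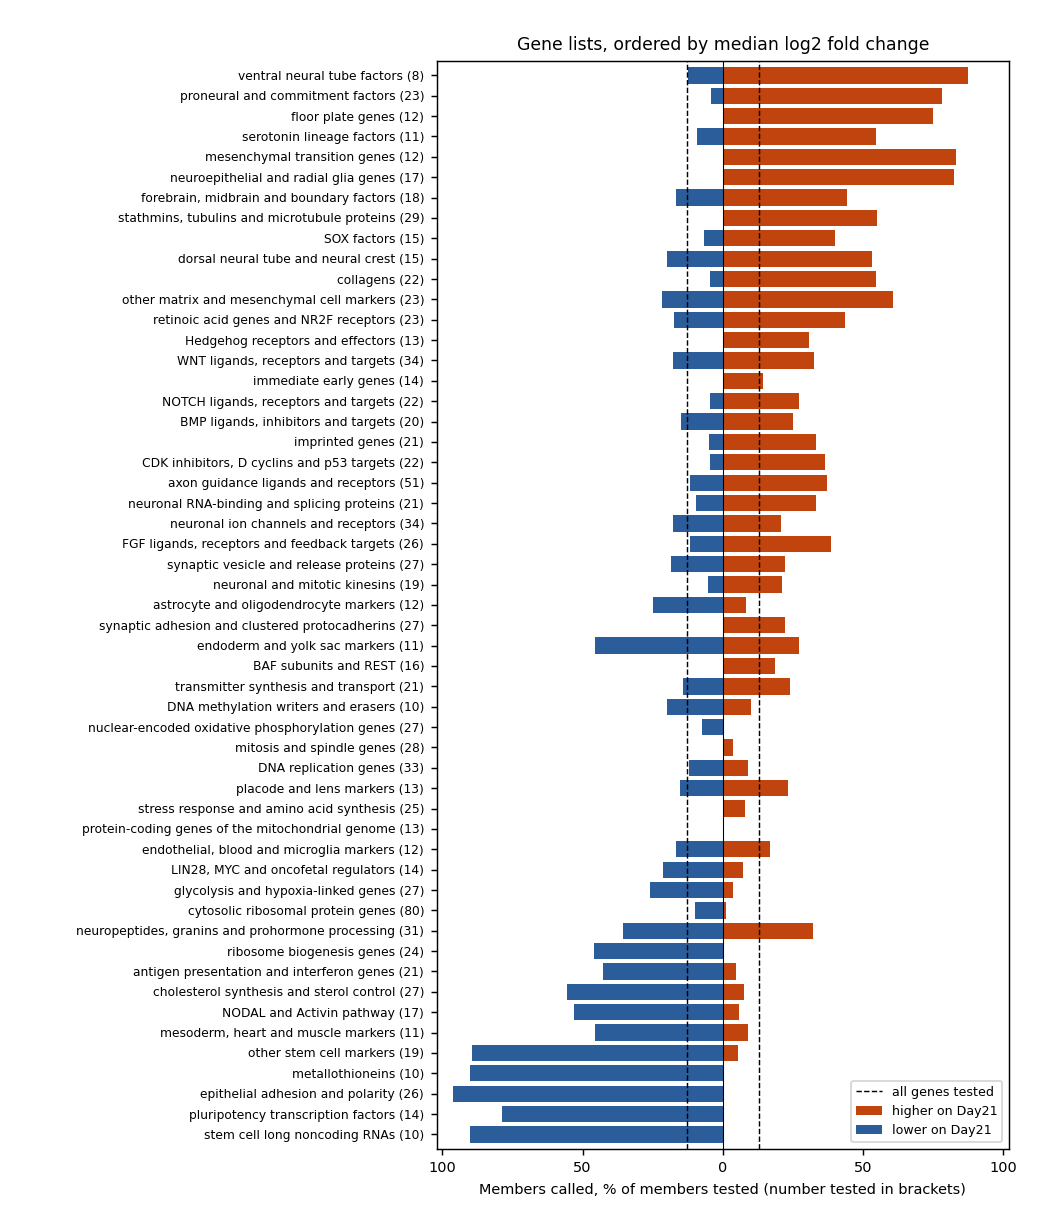
Share of tested members of each gene list with at least 5 tested members that rose (right of 0) or fell (left of 0) on Day21, as a percent of the members tested, ordered by median change. Dashed lines mark 13% and 12.6%, the shares over all genes tested. The medians run from -10.60 for stem cell long noncoding RNAs to 7.44 for ventral neural tube factors. Of epithelial genes 25 of 26 fell, and of proneural genes 18 of 23 rose.

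Of mitosis genes 3.57% were called and of DNA replication genes 21.2%, against 25.6% of all genes. Of 28 mitosis and spindle genes tested, 1 rose and 0 fell (0 rose without Day0 replicate 1, 2 rose without Day0 replicate 3 and 1 fell without Day0 replicate 3), with a median of -0.08 and a summed FPKM of 632 to 819 on Day0 and 605 to 709 on Day21. CDC20, an activator of the anaphase complex, had 100.3, 109.6 and 116 on Day0 and 99.4, 90.6 and 101 on Day21 (log2 fold change -0.23 ± 0.19, adjusted p = 0.403), and CCNB1, cyclin B1, had 166, 268 and 164 on Day0 and 141, 139.9 and 159.9 on Day21 (log2 fold change -0.51 ± 0.28, adjusted p = 0.221). Of 33 DNA replication genes, 3 rose and 4 fell (2 fell without Day21 replicate 2). PCNA, the replication clamp, had 147, 184 and 128 on Day0 and 186, 186 and 220.2 on Day21 (log2 fold change 0.30 ± 0.25, adjusted p = 0.419). The G1 cyclins exchanged, CCNE2 higher (log2 fold change 1.56 ± 0.33, adjusted p = 0.0106) and CCNE1 lower (log2 fold change -1.07 ± 0.18, adjusted p = 0.00464), as did TYMS, thymidylate synthase, higher with 14.9, 22.9 and 19.6 on Day0 and 64.2, 51 and 50.7 on Day21 (log2 fold change 1.46 ± 0.21, adjusted p = 0.00212), and CDC6, a licensing factor, lower with 10.7, 21 and 15.5 on Day0 and 7.46, 5.82 and 6.73 on Day21 (log2 fold change -1.30 ± 0.26, adjusted p = 0.00816).

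Several brakes on the cell cycle rose. Of 22 CDK inhibitors, D cyclins and p53 targets tested, 8 rose and 1 fell (0 fell without Day0 replicate 1 or Day21 replicate 1 or Day21 replicate 2, 2 fell without Day0 replicate 3), with a median of 0.76. CDKN1A, the inhibitor p21, had 1.98, 1.58 and 3.97 on Day0 and 110.1, 72.9 and 50.4 on Day21 (log2 fold change 4.89 ± 0.42, adjusted p = 0.000261), and GADD45A, a growth arrest gene, had 8.3, 10.3 and 8.77 on Day0 and 49, 37.2 and 46.5 on Day21 (log2 fold change 2.20 ± 0.20, adjusted p = 0.000331). CCND1, cyclin D1, which promotes entry into the cycle, rose as well, with 4.84, 4.87 and 7.21 on Day0 and 101, 56.2 and 59.3 on Day21 (log2 fold change 3.59 ± 0.26, adjusted p = 0.000166). CDK4, its partner, had 43.8, 45.9 and 53.3 on Day0 and 52.6, 50.6 and 49 on Day21 (log2 fold change 0.03 ± 0.18, adjusted p = 0.92) and overlapped. Among kinesins, 26.3% were called, against 25.6% of all genes. Of 19, 4 rose and 1 fell (2 rose without Day0 replicate 1 or Day21 replicate 1 and 0 fell without Day0 replicate 1 or Day0 replicate 3 or Day21 replicate 2 or Day21 replicate 3). The axonal motor KIF1B had 0.446, 0.465 and 0.581 on Day0 and 2.37, 1.26 and 1.43 on Day21 (log2 fold change 1.67 ± 0.24, adjusted p = 0.00214).

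Genes for making ribosomes were lower on Day21. Of 24 ribosome biogenesis genes tested, 11 fell and 0 rose, with a median of -1.07 and a summed FPKM of 1616 to 1781 on Day0 and 881 to 901 on Day21 (7 fell without Day21 replicate 2, 6 fell without Day21 replicate 3). NOP16, a nucleolar protein, had 175, 193 and 96.2 on Day0 and 26.4, 37.9 and 43 on Day21 (log2 fold change -2.18 ± 0.39, adjusted p = 0.00573), and RRS1 had 17.4, 18.3 and 24.3 on Day0 and 6, 4.67 and 4.57 on Day21 (log2 fold change -2.04 ± 0.20, adjusted p = 0.000438). POLR1B, a subunit of RNA polymerase I, fell from 1.8, 1.72 and 2.29 to 0.732, 0.583 and 0.647 (log2 fold change -1.63 ± 0.21, adjusted p = 0.00147). For the ribosomal proteins themselves, 8 of 80 fell and 1 rose, a share under the background, and the counts moved with single libraries (0 rose without Day0 replicate 1 or Day21 replicate 2 or Day21 replicate 3 and 2 fell without Day0 replicate 1 or Day21 replicate 1 or Day21 replicate 2, 15 fell without Day0 replicate 3, 4 fell without Day21 replicate 3). Their median was -0.55, and their share of counts was 8.56% to 10.3% on Day0 and 6.41% to 7.82% on Day21, groups that did not overlap. These genes have many processed copies, so their counts are uncertain.

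Energy metabolism changed in single genes. Of 27 glycolysis and hypoxia-linked genes tested, 7 fell and 1 rose (3 rose without Day0 replicate 3), with a median of -0.49. The called share was 29.6%, against 25.6% of all genes. LDHA, which makes lactate, had 49.95, 63.9 and 81.8 on Day0 and 9.33, 7.72 and 5.97 on Day21 (log2 fold change -3.15 ± 0.24, adjusted p = 0.000193), whereas LDHB had 808, 948 and 730.4 on Day0 and 636, 612 and 679 on Day21 (log2 fold change -0.44 ± 0.27, adjusted p = 0.278) and did not pass. The glucose transporters exchanged, SLC2A3 falling from 12.8, 12.2 and 16.5 to 3.21, 2.77 and 2.76 (log2 fold change -2.31 ± 0.19, adjusted p = 0.000219) and SLC2A1 rising from 7.05, 8.06 and 16.8 to 39.8, 40.1 and 27.1 (log2 fold change 1.71 ± 0.33, adjusted p = 0.00732). Of 27 nuclear-encoded oxidative phosphorylation genes, 2 fell and 0 rose (1 fell without Day0 replicate 1, 4 fell without Day0 replicate 3), with a median of -0.06. Only 7.41% of them were called. None of the 13 genes of the mitochondrial genome was called by edgeR (1 fell without Day21 replicate 1).

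Most genes of cholesterol synthesis fell. Of 27 genes of synthesis and sterol control tested, 15 fell and 2 rose, with a median of -1.38 (1 rose without Day0 replicate 1). INSIG1, a sterol sensor that is itself induced when sterols are scarce, had 80.1, 82.3 and 81 on Day0 and 12.9, 12.3 and 15.1 on Day21 (log2 fold change -2.66 ± 0.22, adjusted p = 0.000227). The enzymes CYP51A1 and SC5D had 77.8, 145 and 51.8 on Day0 and 15.1, 15.5 and 19.2 on Day21 (log2 fold change -2.54 ± 0.42, adjusted p = 0.00402) and 19.2, 24 and 16.8 on Day0 and 4.66, 3.04 and 3.73 on Day21 (log2 fold change -2.48 ± 0.24, adjusted p = 0.000438). ABCA1, which exports cholesterol and is induced by oxysterols, was 1 of the 2 that rose, with 0.0525, 0.0374 and 0.0307 on Day0 and 0.285, 0.506 and 0.842 on Day21 (log2 fold change 3.70 ± 0.55, adjusted p = 0.00258). PMVK, an early enzyme, had 41.5, 40.5 and 49 on Day0 and 60.04, 63.6 and 58.4 on Day21 (log2 fold change 0.42 ± 0.19, adjusted p = 0.138) and did not pass.

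Antigen presentation genes fell in part. Of 21 antigen presentation and interferon genes tested, 9 fell and 1 rose, with a median of -1.31. PSMB8, an immunoproteasome subunit, had 6.76, 6.5 and 6.71 on Day0 and 0.388, 0.281 and 0.5 on Day21 (log2 fold change -4.13 ± 0.30, adjusted p = 0.000154), and BST2, an antiviral membrane protein, had 75.7, 58.6 and 77.7 on Day0 and 6.48, 6.96 and 6.81 on Day21 (log2 fold change -3.44 ± 0.24, adjusted p = 0.000128). IFITM1, among the 10 most abundant genes of Day0 by the same rule, had 3712, 3317 and 2745 on Day0 and 388, 514 and 510.2 on Day21 (log2 fold change -2.85 ± 0.34, adjusted p = 0.000982), while its neighbour IFITM3 had 1202, 768 and 1076 on Day0 and 987, 1356 and 1269 on Day21 (log2 fold change 0.19 ± 0.32, adjusted p = 0.694) and did not pass. The libraries of the days were apart for the first 3 of these genes.

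Stress genes showed few calls. Of 25 tested, 2 rose and 0 fell, a called share of 8% against 25.6% of all genes. The counts moved with single libraries (1 rose without Day0 replicate 1 or Day21 replicate 1 or Day21 replicate 2, 4 rose without Day0 replicate 3 and 1 fell without Day0 replicate 2 or Day21 replicate 1). DDIT3, the CHOP factor of the unfolded protein response, had 11.6, 16.1 and 9.67 on Day0 and 44.9, 53.2 and 60.4 on Day21 (log2 fold change 2.02 ± 0.30, adjusted p = 0.00244), but the chaperone HSPA5 had 290.1, 393 and 352 on Day0 and 217, 194 and 194 on Day21 (log2 fold change -0.84 ± 0.23, adjusted p = 0.0302), under the size asked for. Of 14 immediate early genes, 2 rose and 0 fell (1 rose without Day0 replicate 1, 5 rose without Day0 replicate 3 and 2 fell without Day0 replicate 2). Their called share of 14.3% was also under that of all genes. EGR2, also a gene of hindbrain segments, had 0.113, 0.255 and 0.288 on Day0 and 0.844, 0.782 and 0.836 on Day21 (log2 fold change 1.86 ± 0.41, adjusted p = 0.0123). Among 21 imprinted genes, 7 rose and 1 fell (2 fell without Day21 replicate 1), a called share of 38.1% against 25.6% of all genes. MKRN3 had no count on Day0 and 0.723, 0.458 and 0.382 on Day21 (at least 18-fold higher), and IGF2, the fetal growth factor, had 0.0738, 0.0925 and 0.117 on Day0 and 1.42, 1.06 and 1.27 on Day21 (log2 fold change 3.64 ± 0.30, adjusted p = 0.000222). SNRPN, which lies near MKRN3, fell with 878, 730.4 and 820.1 on Day0 and 149, 149.6 and 196 on Day21 (log2 fold change -2.36 ± 0.29, adjusted p = 0.00122), a value that is uncertain because other models overlap it on the same strand.

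**Figure D4:**
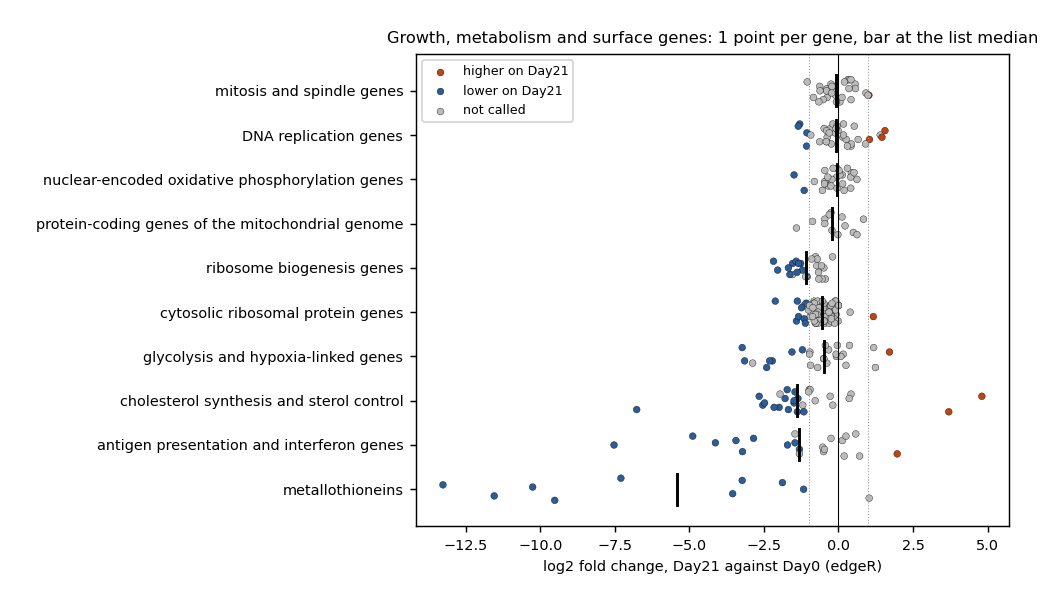
Log2 fold change of Day21 against Day0 for each tested gene of 10 lists of growth, metabolism and surface genes, 1 point per gene, with a bar at the list median. Mitosis genes centre on -0.08 and metallothioneins on -5.43, and dotted lines mark the change of 1 that a call asks for.

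Some large changes were in genes of none of these lists. SCGB3A2, a secreted protein of airway cells, had 312, 345 and 187 on Day0 and no count on Day21, a fall of at least 2207-fold. CCL26, a chemokine, and CDA, cytidine deaminase, had 34.6, 36.4 and 28.3 and 18, 17.6 and 15.2 on Day0 and no count on Day21 (at least 169-fold and at least 100.5-fold lower). PLSCR5, a phospholipid scramblase, had no count on Day0 and 17, 20.5 and 28.5 on Day21, a rise of at least 290.5-fold. PTX3, a secreted pentraxin, had a mean of 0.186 ± 0.151 (SD, n = 3) on Day0 and 61.2 ± 33.9 on Day21 (log2 fold change 8.25 ± 0.82, adjusted p = 0.000473), and CYP1B1, an enzyme of retinoid and steroid oxidation, had 0.028, 0 and 0.0166 on Day0 and 14.9, 8.56 and 9.81 on Day21 (log2 fold change 9.44 ± 0.80, adjusted p = 0.00026). GNG11, a G protein subunit with one of the smallest p values, had 3.28, 4.02 and 3.44 on Day0 and 189, 191 and 178 on Day21 (log2 fold change 5.63 ± 0.25, adjusted p = 7.57e-05). NME1-NME2, a read-through model over 2 neighbouring genes, had no count on Day0 and 424, 426 and 397 on Day21, the largest fitted change of all genes. It shares its exons with both genes, so this value may reflect how reads were assigned and is uncertain.

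Genes that rose covered more of the genome than those that fell. Among protein-coding genes the median span from first to last exon was 46.1 kb in the 1925 that rose (quartiles 14.9 and 122.2), 27.4 kb in the 2024 that fell (10.2 and 70.5) and 33.3 kb in the 14671 tested (12.7 and 82.9). Spans over 100 kb were found in 30.3%, 18.1% and 20.8% of them. The median summed exon length was 5.19, 4.22 and 5.01 kb. This is a description over genes, which are not independent, and no test was made.

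**Figure D5:**
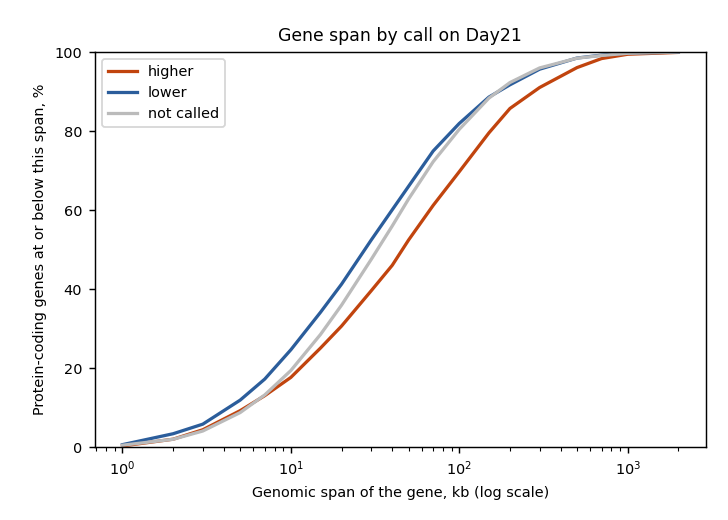
Share of protein-coding genes (y axis, percent) with a genomic span at or below the value on the x axis (kb, log scale), for genes that rose, fell or were not called on Day21. The curve of genes that rose lies to the right of the others over most of the range, with medians of 46.1 kb against 27.4 kb for genes that fell.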

How the data were processed

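Total RNA was isolated with Trizol and about 10 ng was made into libraries with the NEBNext Single Cell/Low Input kit, per the labels' protocols. Reads were trimmed with cutadapt 1.9 and handled on GRCh38, per the submitters' processing notes (aligner, counter, annotation and strand setting: not given in the sources used here). Each gene has a deposited count, a whole number with a different total in each library and so taken as not normalized. It also has a deposited FPKM value, named so per the file headers. Counts pile up at multiples of 4, so the limit for a count of 0 was set at 12 per library. Without a stated strand setting, reads of overlapping genes on opposite strands cannot be told apart.

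From the counts of the 6 libraries, edgeR 4.0.16 (R 4.3.3) filtered genes with filterByExpr, scaled them by TMM and ran quasi-likelihood tests with Benjamini-Hochberg adjustment over 19541 genes. FPKM served only for levels. On simulated data with 18665 genes, 100 genes were changed by 2 and 100 by 3 on the log2 scale, none of them with low counts. Of these, 46% and 78% were called with the right sign, and 0.027% of unchanged genes were called. Far fewer genes changed there than the 25.6% called here, so these shares do not give the power in these data. Alternatives were DESeq2 1.42.0, limma 3.58.1 (voom, and log2 of FPKM + 1 with and without a filter on FPKM), other filters and scalings, all 9 libraries, a replicate block and each library left out.

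The members and gene lists were chosen with earlier results of these data known. Named were the 5 markers, the 12 genes per direction with the largest changes, the 10 most abundant per day, up to 5 called members per direction and 3 not called from each list, and the 8 smallest p per direction. Genes outside this rule, such as NES, MAP2, TUBB3, MT1X, MT2A, HEYL and those named for being at 0, were chosen after their values were seen. Gene positions and spans are those deposited with the counts. Gene types and summed exon lengths come from GENCODE 29, which held 33890 of 34961 IDs, and promoters from RefSeq. A check of promoter base content was void, since only 75.9% of the protein-coding genes that rose had a promoter window. Among named genes, SOX1, SOX2, SOX6, NEUROD1, TDGF1, L1TD1, LEFTY2, ESRP1, ZEB1, ZEB2, COL3A1, ACTA2, TAGLN, APOE, NR2F2, MEIS2, CYP1B1, FGF2, HMGA1, IFITM1, LDHA, SLIT1, MAP6, NOVA1, VAMP2, CADM1, GRIA1, DHRS3, DDIT3, CYP51A1, SLC2A1, KIF1B, TPH2, CDK4, DNMT1, ETV5, GATA3, LDHB, PCNA, PROM1 and SMAD2 overlap another gene model on the same strand, so their counts may be shared.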

Additional observations from a re-analysis of the deposited data

How the results depend on the processing

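Of the 2550 genes that rose and 2459 that fell, the counts stayed within 1.5 times under median-of-ratios scaling, no filter on low counts, counts divided by 4, DESeq2 and limma-voom. The fits without a library called 1737 to 3209 genes higher and 1920 to 2576 lower, and 1497 and 1632 genes kept their call in all 6. When genes needed an FPKM of 1 or more in 3 libraries, which left 9204 to test, 1313 rose and 1246 fell. With all 9 libraries in the fit, 266 rose and 238 fell. With limma on log2(FPKM + 1) over those 9204 genes, 954 rose and 993 fell, and over all 19541 genes, an alternative chosen after seeing the data, 987 rose and 1036 fell. With the replicate block, 1545 rose and 1579 fell. The cause of the lower counts with 9 libraries and with the block was not tested. Deviations from the day's mean correlated at -0.142, 0.0309 and -0.252 between same-numbered libraries. Those of Day0 replicate 3 and Day21 replicate 1 correlated at 0.333. With 3 libraries a day, these values cannot tell whether libraries of the 2 days shared a batch.

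No gene called and named in the text changed direction. Some genes that were not called did, and the cause was not tested. Over the fits without a library, the change ranged from -1.34 to 0.06 for ACVR2A, -0.44 to 0.03 for ALCAM, -0.02 to 0.10 for CDK4, -0.10 to 0.07 for DNMT1, -0.09 to 0.14 for ETV5, -0.63 to 0.69 for GLI2, -0.43 to 8.27 for HEYL, -0.07 to 0.43 for PROM1, -0.30 to 0.01 for QDPR, -0.44 to 0.80 for SNAI1 and -0.14 to 0.05 for SOX2. With the FPKM filter the changes were 0.03 for DNMT1, 0.07 for ETV5 and 0.04 for SOX2, and with limma on log2(FPKM + 1), over either set of genes, 0.03 for DNMT1, 0.05 for ETV5, 0.02 for GLI2 and 0.03 for SOX2, with 0.03 for SNAI1 over all genes. The replicate block gave 0.00 for ETV5, 0.08 for GLI2 and 0.14 for SNAI1, and limma-voom 0.01 for ETV5, 0.01 for GLI2 and 0.05 for SNAI1. ETV5 was at 0.00 with no filter, and SNAI1 at 0.00 with all 9 libraries. Of the 326 called genes that the naming rule picked, 95 were called with all 9 libraries and 271 with the replicate block. Counts of list members moved by over 1.5 times in 85 of 110 cases with all 9 libraries, 46 with the FPKM filter, 53 and 50 with limma on FPKM over the smaller and the full set of genes, and 22 with the block.

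With 3 libraries a day, a gene that did not pass is not shown to be unchanged. Changes of 2 on the log2 scale were often missed in simulated data, where far fewer genes changed than were called here. Genes with fewer than 12 counts in a library were at the limit of what the depth can show.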
